A study of Mus musculus with 6 samples.

Results

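G2-M and mitosis genes encode the proteins that take a cell from the end of DNA synthesis through chromosome segregation to cytokinesis. Listed by name for their known roles, 51 genes made up the set. This set and the lists set beside it were chosen with earlier results of these data known. For each gene the brightest probe set on average was used, out of those that the array annotation gives to that gene alone. Of the 51, 50 had such a probe set and all 50 passed the filter on dim signals, out of 13194 genes tested in all. Ccnb1 was not analysed here.

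The cells were cytotoxic T cells of C57Bl/6 mice that carry the P14 T cell receptor transgene, grown from spleens activated for 24 hours with the gp33 peptide. The cultures were then infected with a retrovirus encoding HDAC7, a class IIa histone deacetylase, as a fusion of GFP with a phosphorylation-deficient mutant. The 3 GFP positive samples are the sorted cells that express the fusion protein, and the 3 GFP negative samples, labelled as the control, are the sorted cells without GFP. All 6 samples thus share the transgene, the peptide and the exposure to virus, and differ in GFP. Infection, GFP and the HDAC7 mutant cannot be told apart in this comparison, since no cells given an empty vector entered the comparison. The labels call the replicates biological and do not say whether each came from its own animal, so p-values measure the spread between these samples.

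In a dividing cell, CDK1 bound to cyclin A or cyclin B drives entry into mitosis, and CDC25 phosphatases release it from inhibition. Kinetochores then attach chromosomes to the spindle while the spindle checkpoint holds back the anaphase promoting complex. That ubiquitin ligase later destroys securin and the cyclins, so that separase opens cohesin and the central spindle places the cleavage furrow. Transcripts of many of these genes peak together in G2 and M, under the control of the DREAM, MYBL2 and FOXM1 complexes, and are widely used as a measure of division in activated T cells. In bulk RNA, more cells in G2-M and more of these transcripts per cell cannot be told apart.

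Higher signals in GFP positive samples were found for 46 of the 50 genes (limma, adjusted p under the threshold of 0.05), and lower signals for 0 of 50. Over all genes tested, 42.1% were called, 24.6% as higher and 17.5% as lower. The 4 genes not past the threshold were Plk4, Nek2, Spc24 and Smc4, and they too had changes above 0. The median change of the 50 genes was 0.65 on the log2 scale, which is 1.57-fold, against a median of -0.02 over all genes tested. The 50 genes were bright, with a median log2 signal of 7.81, against 4.67 over all genes tested. With a stricter filter, at the 60th percentile of probe set signals, 33.1% of all genes were higher and their median change was 0.06. Changes ran between 0.12 for Nek2 and 1.13 for Cenpf. Limma's moderated standard errors, which borrow variance from all genes tested, were 0.072 to 0.128. Of the 46 called genes, 31 were at least 1.5-fold higher, and 2 of all 50 genes, Cenpf and Kif20a, had a log2 change of at least 1 on these probe sets. In 48 of 50 genes every GFP positive sample lay above every GFP negative sample, as in 29.7% of all genes tested. The exceptions were Nek2 and Smc4. The shift was therefore shared by most of the set and mostly under 2-fold.

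**Figure D1:**
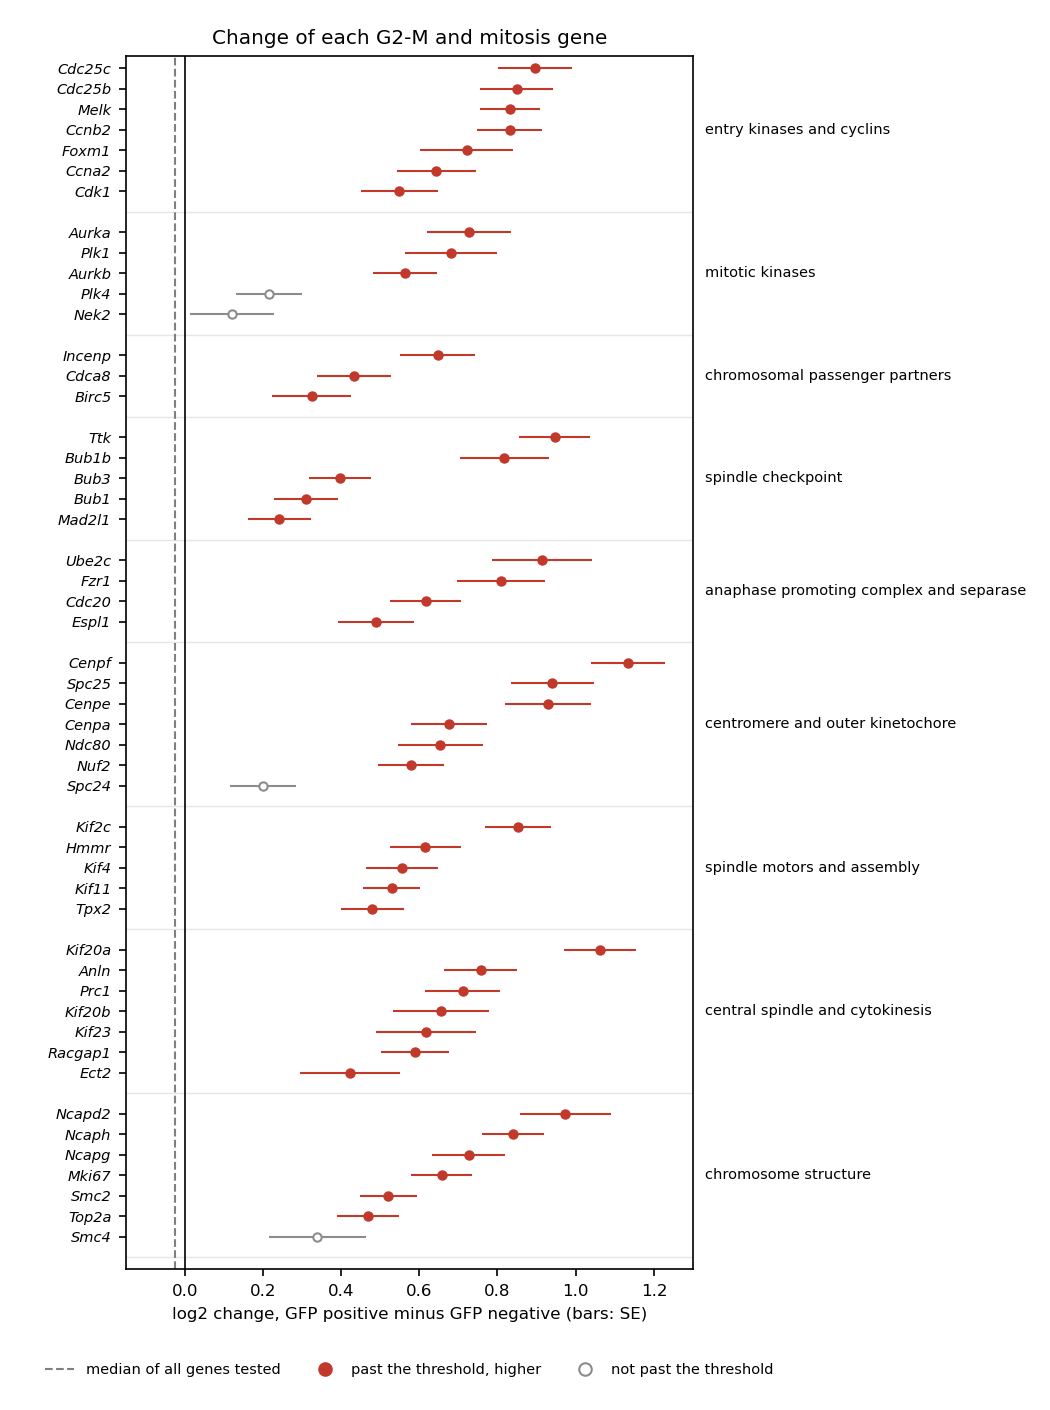
Log2 change of each of the 50 genes, GFP positive minus GFP negative, by role, with limma's moderated standard error as a bar and n = 3 samples in each group. Filled points passed the threshold and open points (Plk4, Nek2, Spc24 and Smc4) did not. Every point lies to the right of 0 and of the dashed median of all genes tested, at -0.02.

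The 6 arrays were compared before the genes were described. Each array's median signal over all probe sets was 1.63 to 1.67 on the log2 scale in GFP positive samples and 1.70 to 1.72 in GFP negative samples. Hybridisation control probe sets averaged 8.49, 8.54 and 8.80 in GFP positive samples, against 8.44, 8.45 and 8.40 in GFP negative samples. Every GFP positive array thus lay above every GFP negative array, and GFP positive 3 was the highest. The median of the 50 genes, each relative to its own mean over the 6 arrays, was 0.23, 0.28 and 0.45 in GFP positive samples, against -0.40, -0.33 and -0.24 in GFP negative samples. GFP positive 3 was the highest sample for 36 of the 50 genes and GFP negative 1 the lowest for 32. Without GFP positive 3 and GFP negative 1, 41 of the 46 genes were still past the threshold, with a median change of 0.55 over the 50. The 5 lost calls were those of Birc5, Cdca8, Bub3, Mad2l1 and Ect2. The samples left out were picked by the values of these same genes. The remaining arrays still differed by group in their hybridisation controls. This fit therefore cannot address the hybridisation difference, and the part of that difference in the result was not tested. The distance between the 3' and 5' probe sets of Gapdh, a measure of RNA integrity, was 0.05, 0.12 and 0.02 in GFP positive samples, against 0.03, -0.02 and 0.08 in GFP negative samples. Those groups overlapped.

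The probe sets for Hdac7 gave a check of the labels. On 1 of the 2 the signal was 8.09, 8.18 and 8.17 in GFP positive samples, against 4.86, 4.83 and 4.81 in GFP negative samples, a 9.96-fold difference (limma over all probe sets, adjusted p = 5.97e-06). On the other it was 6.17, 6.19 and 6.21 in GFP positive samples, against 6.65, 6.76 and 6.81 in GFP negative samples, a log2 change of -0.55 (adjusted p = 0.00221). The sorted samples were thus separated as labelled by the first probe set, and the sources used here do not say which part of the transcript each probe set reads. Of 7 markers of CD8 T cells, 6 passed the filter, and Trac, the constant region of the T cell receptor alpha chain, did not (0.51 to 0.71 in GFP positive samples and 0.48 to 0.61 in GFP negative samples). The 7 had summed linear signals of 7465 to 8633 in GFP positive samples and 5693 to 6326 in GFP negative samples, and of the 6 tested 4 (Cd8a, Cd8b1, Cd3e and Cd3g) were higher. Their part in the shift of the mitosis genes was not tested. Of 22 markers listed for B, myeloid, NK, helper T and erythroid cells, 19 had a probe set, 9 passed the filter and 0 passed the threshold in limma. Their summed linear signals in GFP positive and GFP negative samples were 30.3 to 36.7 and 31.7 to 42.4 for B cells, and 17.9 to 19.6 and 19.3 to 21.3 for myeloid cells. They were 3.14 to 3.77 and 3.12 to 3.64 for NK cells, 11.4 to 11.9 and 12.2 to 13.2 for helper T cells, and 5.16 to 5.83 and 6.04 to 7.07 for erythroid cells. Sums of different cell types rest on different probe sets and are not to be compared with each other.

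The promoters of the genes were searched for letters of elements known from G2-M genes. Since the genes were chosen for their known G2-M roles, the shares below describe the set. They do not describe the difference between GFP positive and GFP negative samples. The cell cycle genes homology region (CHR) is the element through which the DREAM and MYBL2 complexes bind G2-M genes, and CCAAT boxes, bound by NF-Y, often stand upstream of it. Promoters of 300 bases (250 before and 50 after the annotated start) were taken from RefSeq on GRCm38.p6, where 41 of the 50 genes matched, with 44 promoters. Letters were searched on both strands. The CHR letters TTTGAA were present in 75.0% of the 44 promoters, against 17.9% of all 32851 promoters in the table. CCAAT was present in 77.3%, against 37.4% of all promoters. Both stood together in 65.9%, against 6.95% of all promoters. The variant CHR letters TTTAAA, which are their own reverse complement, were found in 20.5%, against 13.2%. The E2F letters TTTNGCGC were found in 6.82%, against 1.38%, in Cdk1, Ncapd2 and Racgap1. Where TTTGAA was present it lay in the last 100 bases, which hold the start, in 87.9% of the genes' promoters and in 27.6% of all promoters with these letters. These are matches of letters and no measurement of binding. Genes with TTTGAA had a median log2 change of 0.66 (n = 30) and genes without it 0.58 (n = 11), which is given as a description.

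The 160 bases before the start are shown for the 6 promoters in the table whose genes had the largest changes, so that the CCAAT and CHR letters can be seen in place. Capitals mark the 4 kinds of letters searched, on either strand. A CCAAT box on the opposite strand reads ATTGG, and a CHR there reads TTCAAA. In the order shown, the windows on GRCm38.p6 are chr1:189688087-189688246 (Cenpf, minus strand), chr6:125191587-125191746 (Ncapd2, minus strand), chr9:83834529-83834688 (Ttk, plus strand), chr2:69206214-69206373 (Spc25, minus strand), chr3:135212403-135212562 (Cenpe, plus strand) and chr2:164769769-164769928 (Ube2c, plus strand), each read 5′ to 3′ on the gene's strand.
Cenpf: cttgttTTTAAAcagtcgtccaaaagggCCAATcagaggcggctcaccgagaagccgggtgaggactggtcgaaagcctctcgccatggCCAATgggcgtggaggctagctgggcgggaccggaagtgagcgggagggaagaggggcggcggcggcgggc
Ncapd2: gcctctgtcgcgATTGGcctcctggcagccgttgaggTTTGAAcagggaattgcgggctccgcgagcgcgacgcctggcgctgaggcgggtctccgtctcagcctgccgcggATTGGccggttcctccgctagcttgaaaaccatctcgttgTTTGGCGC
Ttk: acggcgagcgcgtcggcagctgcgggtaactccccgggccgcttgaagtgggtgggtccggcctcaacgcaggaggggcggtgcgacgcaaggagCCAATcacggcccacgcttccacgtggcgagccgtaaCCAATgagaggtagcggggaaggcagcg
Spc25: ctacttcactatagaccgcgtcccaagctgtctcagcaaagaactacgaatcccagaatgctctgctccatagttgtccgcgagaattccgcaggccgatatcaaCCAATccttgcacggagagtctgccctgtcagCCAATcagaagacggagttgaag
Cenpe: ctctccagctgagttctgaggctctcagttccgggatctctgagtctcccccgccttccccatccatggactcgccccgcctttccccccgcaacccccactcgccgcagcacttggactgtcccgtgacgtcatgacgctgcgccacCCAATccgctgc
Ube2c: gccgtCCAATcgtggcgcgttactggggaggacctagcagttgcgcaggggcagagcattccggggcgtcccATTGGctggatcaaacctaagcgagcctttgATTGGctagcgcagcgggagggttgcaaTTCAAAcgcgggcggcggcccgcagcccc

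In Cenpf, Ttk (opposite strand) and Spc25 the TTTGAA letters lie just past the start, and in Cenpe the TTTAAA letters do. A stretch of 30 bases around each is shown, with the element in capitals, from chr1:189688067-189688096 (Cenpf, minus strand), chr9:83834684-83834713 (Ttk, plus strand), chr2:69206172-69206201 (Spc25, minus strand) and chr3:135212565-135212594 (Cenpe, plus strand).
Cenpf: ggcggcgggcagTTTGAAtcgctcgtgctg
Ttk: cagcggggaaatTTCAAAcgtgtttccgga
Spc25: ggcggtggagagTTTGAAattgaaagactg
Cenpe: ccttgaggacatTTTAAActtaaaggcggg

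Ncapd2 and Ube2c had TTTGAA upstream of the start, in Ube2c on the opposite strand. CCAAT letters lay upstream in all 6. In Cenpf, Ttk and Spc25 a pair of CCAAT boxes lies before the start, upstream of the TTTGAA letters of the shorter stretches. The TTTAAA letters of Cenpf lie upstream of both of its boxes.

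Among the kinases and cyclins of mitotic entry, 7 of 7 were higher, with a median change of 0.83. All log2 signals below are given for replicates 1, 2 and 3 in that order. Each change is the GFP positive mean minus the GFP negative mean, with n = 3 in each group. The standard error after it is limma's moderated one, given beside limma's adjusted p. Cdk1, the kinase that drives mitotic entry, measured 9.37, 9.36 and 9.65 in GFP positive samples, against 8.91, 8.86 and 8.95 in GFP negative samples, a change of 0.55 ± 0.099 (adjusted p = 0.00309). Ccna2, the cyclin A2 that works from S phase to early mitosis, measured 9.80, 9.84 and 10.05 in GFP positive samples, against 9.14, 9.25 and 9.37 in GFP negative samples, a change of 0.64 ± 0.101 (adjusted p = 0.00162). Ccnb2, a mitotic cyclin that activates CDK1, gave 9.47, 9.41 and 9.59 in GFP positive samples, against 8.64, 8.61 and 8.72 in GFP negative samples, and the change was 0.83 ± 0.083 (adjusted p = 0.000235). In these 3 genes the lowest GFP positive sample lay above the highest GFP negative sample. Cdc25b, a phosphatase that activates CDK1, gave 7.39, 7.48 and 7.58 in GFP positive samples, against 6.51, 6.67 and 6.73 in GFP negative samples, and the change was 0.85 ± 0.093 (adjusted p = 0.000321). Its paralog Cdc25c had 5.80, 5.99 and 6.09 in GFP positive samples, against 5.04, 5.07 and 5.08 in GFP negative samples, a change of 0.90 ± 0.094 (adjusted p = 0.000279). Foxm1, a transcription factor of G2-M genes, had 5.06, 5.20 and 5.48 in GFP positive samples, against 4.46, 4.47 and 4.64 in GFP negative samples, and its change was 0.72 ± 0.119 (adjusted p = 0.00209). Melk, a kinase whose transcript is abundant in dividing cells, stood at 7.12, 7.09 and 7.19 in GFP positive samples, against 6.37, 6.27 and 6.27 in GFP negative samples, and its change was 0.83 ± 0.077 (adjusted p = 0.000165). With 32 added in linear units, which damps dim signals, the change was 0.53 for Cdc25c and 0.35 for Foxm1, both still past the threshold. The groups did not overlap in any of the 7 genes, and GFP positive 3 was the highest sample in all 7.

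Of the 5 mitotic kinases, 3 were higher, and the median change was 0.56. Plk1, the polo-like kinase of centrosome maturation, spindle assembly and cytokinesis, read 8.25, 8.45 and 8.44 in GFP positive samples, against 7.52, 7.67 and 7.91 in GFP negative samples, a change of 0.68 ± 0.117 (adjusted p = 0.00252). Aurka, which acts at centrosomes and on the spindle, read 7.77, 8.01 and 8.02 in GFP positive samples, against 7.07, 7.20 and 7.35 in GFP negative samples, a change of 0.73 ± 0.107 (adjusted p = 0.00121). Aurkb, the catalytic subunit of the chromosomal passenger complex, read 8.71, 8.82 and 8.76 in GFP positive samples, against 8.14, 8.17 and 8.29 in GFP negative samples, a change of 0.56 ± 0.082 (adjusted p = 0.00114). GFP positive samples were above GFP negative samples throughout in these 3 genes. With the mean of all its probe sets the change of Aurka was 0.33 (adjusted p = 0.0139). Plk4, the kinase of centriole duplication, had a change of 0.22 ± 0.084 (adjusted p = 0.0716) and did not pass. A second, dimmer probe set of Plk4 had a change of 0.39 (adjusted p = 0.0191 over all probe sets). Nek2, a kinase of centrosome separation, had a change of 0.12 ± 0.108 (adjusted p = 0.386), and its groups overlapped.

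The other chromosomal passenger subunits, which hold Aurora B at centromeres and then at the central spindle, were higher in 3 of 3, with a median change of 0.43. Incenp, the scaffold, was measured at 9.73, 9.94 and 9.89 in GFP positive samples, against 9.18, 9.11 and 9.33 in GFP negative samples, with a change of 0.65 ± 0.096 (adjusted p = 0.00124). Cdca8, which encodes borealin, was measured at 9.44, 9.61 and 9.58 in GFP positive samples, against 8.99, 9.11 and 9.23 in GFP negative samples, with a change of 0.43 ± 0.094 (adjusted p = 0.00748). Neither gene's groups overlapped. Without GFP positive 3 and GFP negative 1, the change of Cdca8 was 0.35 with an adjusted p of 0.0712. Birc5, which encodes survivin, had a change of 0.32 ± 0.100 (adjusted p = 0.0323). Its call was lost on leaving out GFP positive 3 or any 1 of the GFP negative samples, with adjusted p values up to 0.0914, and its change was 0.23 to 0.39 over the 6 fits with a sample left out.

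Spindle checkpoint genes were higher in 5 of 5, with a median change of 0.40. Ttk, the MPS1 kinase that starts checkpoint signalling at kinetochores, reached 7.09, 7.22 and 7.32 in GFP positive samples, against 6.20, 6.24 and 6.36 in GFP negative samples, a change of 0.95 ± 0.091 (adjusted p = 0.00019). Bub1b, which encodes BubR1 of the mitotic checkpoint complex, reached 8.48, 8.33 and 8.63 in GFP positive samples, against 7.47, 7.78 and 7.73 in GFP negative samples, a change of 0.82 ± 0.115 (adjusted p = 0.000958). The 2 groups were apart in both genes. With the mean of all its probe sets the change of Ttk was 0.55. The other 3 had changes under 0.5. Bub3, the partner of Bub1 and BubR1, had a change of 0.40 ± 0.078 (adjusted p = 0.00477), and Bub1, a checkpoint kinase, had 0.31 ± 0.081 (adjusted p = 0.0169). Mad2l1, the Mad2 protein that binds CDC20, had 0.24 ± 0.081 (adjusted p = 0.0422). The call of Bub1 was lost without GFP positive 2 and without GFP negative 3, with adjusted p values up to 0.0653. The call of Mad2l1 was kept in 1 of 6 fits with a sample left out, the one without GFP positive 2, and its adjusted p reached 0.113.

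The anaphase promoting complex co-factors and separase were higher in 4 of 4, with a median change of 0.71. Cdc20, the activator that starts anaphase, showed 10.51, 10.56 and 10.70 in GFP positive samples, against 9.89, 9.97 and 10.07 in GFP negative samples, a change of 0.62 ± 0.090 (adjusted p = 0.00115). Fzr1, the CDH1 activator of late mitosis and G1, showed 5.96, 6.16 and 6.24 in GFP positive samples, against 5.19, 5.24 and 5.50 in GFP negative samples, a change of 0.81 ± 0.113 (adjusted p = 0.000944). Ube2c, the ubiquitin-conjugating enzyme of the complex whose promoter is printed above, showed 10.59, 10.64 and 11.02 in GFP positive samples, against 9.84, 9.72 and 9.95 in GFP negative samples, a change of 0.91 ± 0.128 (adjusted p = 0.000952). Each GFP positive value exceeded each GFP negative value, and GFP positive 3 was highest in all 4 genes of the group. With 32 added in linear units the change of Fzr1 was 0.50. Espl1, which encodes separase, the protease that cleaves cohesin, had a change of 0.49 ± 0.096 (adjusted p = 0.00469).

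At centromeres and the outer kinetochore 6 of 7 genes were higher, with a median change of 0.68. Cenpf, a kinetochore protein that accumulates in G2, recorded 7.74, 7.91 and 7.90 in GFP positive samples, against 6.69, 6.61 and 6.85 in GFP negative samples, a change of 1.13 ± 0.095 (adjusted p = 0.000117), which is 2.19-fold. It was the largest change of the 50 with the brightest probe set of each gene, but 0.55 with the mean of all probe sets, where Kif20a at 1.06 was the largest. Cenpe, a kinesin that moves chromosomes to the spindle equator, recorded 7.51, 7.57 and 7.81 in GFP positive samples, against 6.56, 6.73 and 6.82 in GFP negative samples, a change of 0.93 ± 0.110 (adjusted p = 0.000431). Cenpa, the histone H3 variant that marks centromeres, recorded 9.54, 9.43 and 9.53 in GFP positive samples, against 8.69, 8.81 and 8.99 in GFP negative samples, a change of 0.68 ± 0.098 (adjusted p = 0.00111). All 3 separated the groups without overlap. The remaining 4 encode the NDC80 complex, which binds microtubules. Spc25 was found at 8.26, 8.21 and 8.35 in GFP positive samples, against 7.21, 7.26 and 7.54 in GFP negative samples, a change of 0.94 ± 0.106 (adjusted p = 0.00035). Ndc80 was found at 6.92, 7.10 and 7.29 in GFP positive samples, against 6.38, 6.45 and 6.51 in GFP negative samples, a change of 0.65 ± 0.108 (adjusted p = 0.00204). Nuf2 was found at 7.96, 7.85 and 8.07 in GFP positive samples, against 7.34, 7.37 and 7.43 in GFP negative samples, a change of 0.58 ± 0.085 (adjusted p = 0.00121). Spc24, the partner of Spc25, had a change of 0.20 ± 0.085 (adjusted p = 0.093) and did not pass, although its groups did not overlap. Differences between the subunits were not tested.

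All 5 spindle motor and assembly genes were higher, with a median change of 0.56. Kif2c, the microtubule depolymerase MCAK, displayed 7.79, 7.92 and 7.99 in GFP positive samples, against 7.00, 7.03 and 7.11 in GFP negative samples, a change of 0.85 ± 0.085 (adjusted p = 0.000231). Kif11, the kinesin that pushes spindle poles apart, displayed 8.02, 7.94 and 7.97 in GFP positive samples, against 7.44, 7.43 and 7.47 in GFP negative samples, a change of 0.53 ± 0.073 (adjusted p = 0.000907). Kif4, a chromokinesin of chromosome arms and the central spindle, displayed 6.56, 6.45 and 6.58 in GFP positive samples, against 5.85, 5.99 and 6.09 in GFP negative samples, a change of 0.56 ± 0.091 (adjusted p = 0.00202). Hmmr, a hyaluronan receptor that also binds the spindle, displayed 7.71, 7.72 and 7.95 in GFP positive samples, against 7.15, 7.17 and 7.21 in GFP negative samples, a change of 0.62 ± 0.090 (adjusted p = 0.00118). With the mean of all its probe sets the change of Kif2c was 0.24 (adjusted p = 0.023). No GFP positive sample of these genes fell within the range of the GFP negative samples. Tpx2, which activates Aurora A on the spindle, had a change of 0.48 ± 0.080 (adjusted p = 0.00218).

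Central spindle and cytokinesis genes were higher in 7 of 7, with a median change of 0.66. Kif20a, the kinesin MKLP2 that carries the passenger complex to the central spindle, had a signal of 7.96, 8.08 and 8.24 in GFP positive samples, against 6.99, 7.03 and 7.08 in GFP negative samples, a change of 1.06 ± 0.092 (adjusted p = 0.000132), or 2.09-fold. Kif20b, a related kinesin of cytokinesis, had a signal of 6.36, 6.47 and 6.78 in GFP positive samples, against 6.01, 5.79 and 5.84 in GFP negative samples, a change of 0.66 ± 0.123 (adjusted p = 0.00374). Prc1, which bundles antiparallel microtubules of the central spindle, had a signal of 8.12, 8.28 and 8.39 in GFP positive samples, against 7.49, 7.52 and 7.65 in GFP negative samples, a change of 0.71 ± 0.096 (adjusted p = 0.000803). These 3 genes were apart between groups. The mean of all probe sets gave 0.40 for Kif20b. Anln, which encodes the contractile ring protein anillin, came to 7.13, 7.01 and 7.28 in GFP positive samples, against 6.36, 6.33 and 6.44 in GFP negative samples, a change of 0.76 ± 0.093 (adjusted p = 0.000509). Kif23 and Racgap1 encode centralspindlin, which organises the central spindle. Kif23 came to 6.89, 7.09 and 7.35 in GFP positive samples, against 6.39, 6.46 and 6.62 in GFP negative samples, a change of 0.62 ± 0.128 (adjusted p = 0.00603). Racgap1 came to 7.84, 7.90 and 8.01 in GFP positive samples, against 7.22, 7.36 and 7.40 in GFP negative samples, a change of 0.59 ± 0.087 (adjusted p = 0.00122), and 0.29 with the mean of all its probe sets (adjusted p = 0.02). Ect2, the RhoA activator that centralspindlin recruits, had a change of 0.42 ± 0.128 (adjusted p = 0.0303), and lost its call on leaving out any 1 of the GFP negative samples, with adjusted p values up to 0.0795 (changes of 0.27 to 0.51 over the 6 fits).

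Of the chromosome structure genes 6 of 7 were higher, with a median change of 0.66. Mki67, the Ki-67 protein that coats mitotic chromosomes and marks dividing cells, was at 10.51, 10.41 and 10.40 in GFP positive samples, against 9.80, 9.71 and 9.84 in GFP negative samples, a change of 0.66 ± 0.079 (adjusted p = 0.000461). Condensin I, which compacts chromosomes, has 3 subunits of its own in the set. Ncapd2 was at 8.55, 8.50 and 8.74 in GFP positive samples, against 7.42, 7.79 and 7.66 in GFP negative samples, a change of 0.97 ± 0.116 (adjusted p = 0.000451). Ncaph was at 8.59, 8.65 and 8.66 in GFP positive samples, against 7.73, 7.78 and 7.88 in GFP negative samples, a change of 0.84 ± 0.079 (adjusted p = 0.000173). Ncapg was at 7.74, 7.96 and 7.99 in GFP positive samples, against 7.12, 7.16 and 7.23 in GFP negative samples, a change of 0.73 ± 0.092 (adjusted p = 0.000603). Smc2, an ATPase core subunit of both condensins, was at 9.42, 9.36 and 9.41 in GFP positive samples, against 8.88, 8.88 and 8.87 in GFP negative samples, a change of 0.52 ± 0.072 (adjusted p = 0.000885). These 5 genes had no overlap between groups. Top2a, the topoisomerase that untangles sister chromatids, had a change of 0.47 ± 0.080 (adjusted p = 0.00234). Smc4, the partner of Smc2, had a change of 0.34 ± 0.124 (adjusted p = 0.0584), did not pass, and had overlapping groups. It passed in 1 of 6 fits with a sample left out, the one without GFP negative 1, with a change of 0.47 (adjusted p = 0.0111). In the other fits its change went down to 0.26 and its adjusted p up to 0.177. By limma over all probe sets, further probe sets of Smc4 had changes of 0.08 (adjusted p = 0.848) and 0.44 (adjusted p = 0.247).

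**Figure D2:**
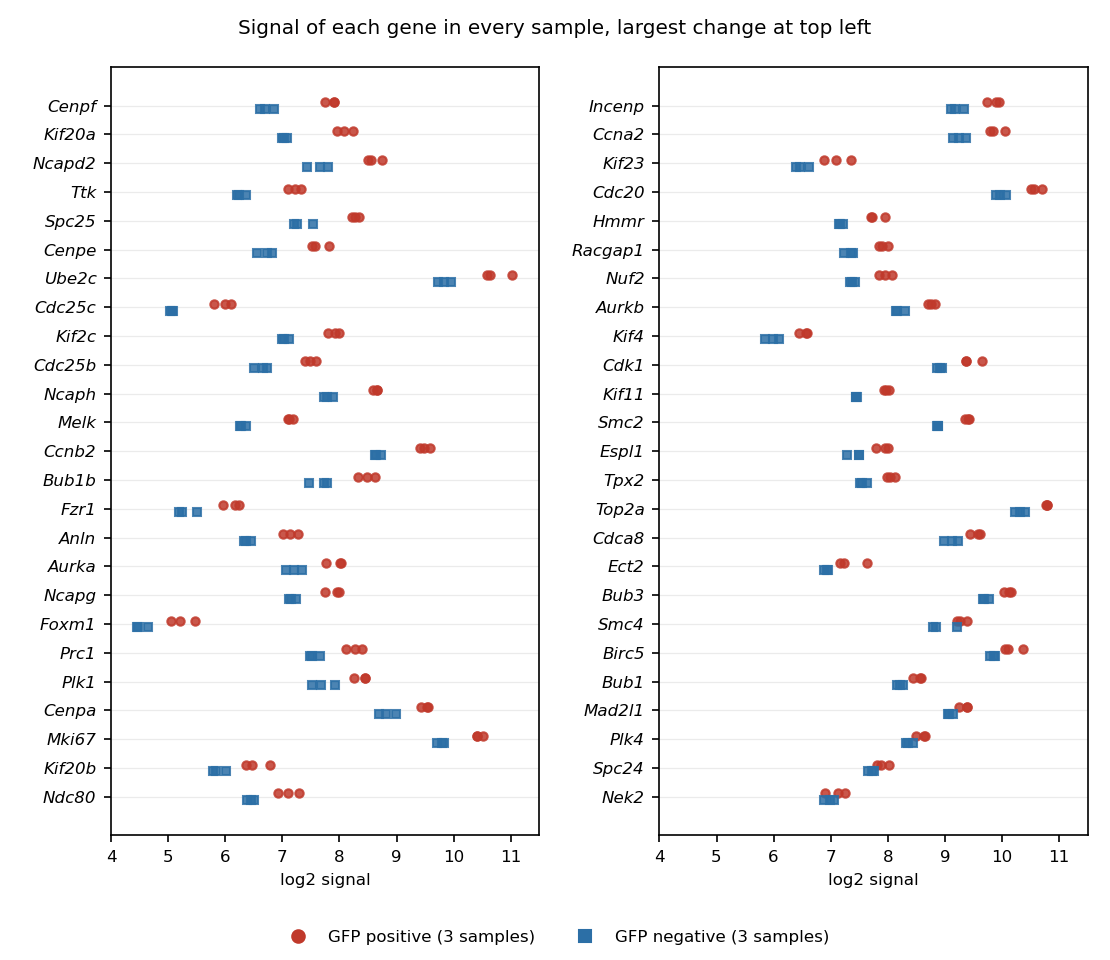
Log2 signal of each of the 50 genes in the 3 GFP positive samples (circles) and the 3 GFP negative samples (squares), with the genes in order of their change. The circles lie to the right of the squares for 48 genes, and the groups overlap for Nek2 and Smc4. Signals of different genes come from different probes and are not to be compared.

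Replicates with the same number were also set against each other, since the numbers pair the samples. The median difference over the 50 genes, GFP positive minus GFP negative, was 0.62 in replicate 1, 0.64 in replicate 2 and 0.68 in replicate 3. The medians over all genes tested were 0.02, -0.01 and -0.01. The difference was above 0 for 49, 49 and 50 of the 50 genes in replicates 1, 2 and 3, and 48 genes were above 0 in all 3. Among all genes tested 35.7% were above 0 in all 3. The change in the set thus had about the same size in each pair of samples.

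The genes had further probe sets on the array that the choice of 1 probe set per gene left out. Of these, 51 passed the filter, for 30 of the genes, and 48 of the 51, or 94.1%, had a change above 0. For the called genes of the set alone it was 42 of 45 other probe sets, or 93.3%. Among all called genes 83.7% of the other probe sets changed in the same direction as the gene. By limma over all probe sets past the filter, 30 of the 51 were higher and 1 was lower. Of the 4867 other probe sets of all called genes, which include genes called lower, 1299 were higher and 876 lower. The 2 other probe sets of Foxm1 past the filter were higher, with changes of 1.07 and 0.88. The other probe set of Cenpa past the filter had a change of 1.54, and a further one of Bub1b had 1.03. The 2 other probe sets of Cenpf had changes of 0.46 (adjusted p = 0.0132) and 0.05 (adjusted p = 0.874). Kif2c disagreed between its 2 other probe sets past the filter, with 0.79 (adjusted p = 0.000579) on one and -0.46 (adjusted p = 0.0207) on the dimmer one. A further probe set of Kif2c did not pass the filter. Tpx2 had 0.55 on one other probe set and -0.01 and -0.18 on 2 dim ones that did not pass. Taking the mean of all probe sets of a gene ended the calls of Kif23 (change 0.18, adjusted p = 0.195), Tpx2 (0.21, adjusted p = 0.054) and Smc2 (0.55, adjusted p = 0.104).

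**Figure D3:**
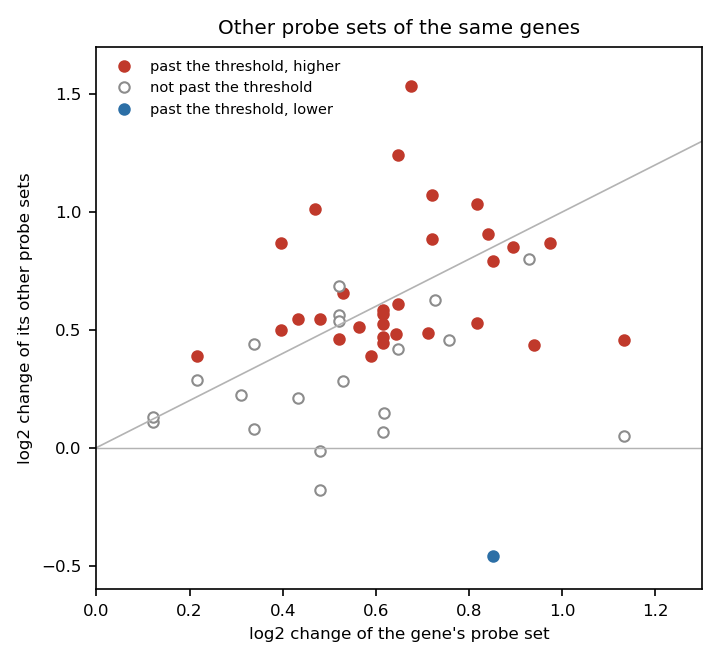
Log2 change (GFP positive minus GFP negative) of the 51 other probe sets of the genes, on the vertical axis, against the change of the probe set that represents the gene, on the horizontal axis; the diagonal marks equal changes. Filled points passed the threshold, 30 higher and 1, of Kif2c, lower. The points below 0 belong to Kif2c and Tpx2.

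Other genes of mitosis were read for context from a list made by role, with 95 genes on the array and 94 tested, Kif14 being too dim. Of the 94, 59 were higher (62.8%), 2 were lower (2.13%) and 33 did not pass, and the median change was 0.42. Over all genes tested 24.6% were higher and 17.5% lower, and with the filter at the 60th percentile 33.1% were higher. The largest changes were in Ccnf, a cyclin F of a ubiquitin ligase, at 1.16 ± 0.134 (adjusted p = 0.000397), and Aspm, a spindle pole protein, at 1.12 ± 0.105 (adjusted p = 0.000179). Next came Ckap2l, a spindle protein, at 1.04 ± 0.112 (adjusted p = 0.000305), Nusap1, a microtubule binder near chromosomes, at 1.02 ± 0.081 (adjusted p = 9.94e-05), and Cit, the citron kinase of the midbody, at 1.01 ± 0.105 (adjusted p = 0.000267). By role, 16 of 19 other spindle genes, 7 of 8 cytokinesis genes and 8 of 11 cohesin and condensin II genes were higher. So were 12 of 23 other centromere and kinetochore genes (52.2%) and 7 of 14 genes of mitotic entry and exit (50%). The counts were 4 of 8 for DREAM and MYBL2 genes (50%) and 5 of 11 for subunits of the anaphase promoting complex (45.5%).

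The 2 lower genes were Zwint, an outer kinetochore protein, and Kif15, a spindle kinesin. Zwint had 6.62, 6.78 and 6.72 in GFP positive samples, against 6.96, 7.11 and 7.01 in GFP negative samples, a change of -0.32 ± 0.085 (adjusted p = 0.0186). Kif15 had 1.83, 1.62 and 1.61 in GFP positive samples, against 2.15, 1.88 and 2.04 in GFP negative samples, a change of -0.34 ± 0.102 (adjusted p = 0.0308). Both calls depended on single samples. That of Zwint was lost without GFP negative 2 or GFP negative 3 (adjusted p = 0.066 and 0.051), and that of Kif15 without GFP positive 2, GFP positive 3, GFP negative 1 or GFP negative 3 (adjusted p between 0.084 and 0.101).

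Genes of the preceding phases had smaller median changes. Of 20 DNA replication genes, 4 were higher and 0 lower, with a median change of 0.08. Of 13 G1 cyclins, CDKs and E2F genes, 5 were higher and 2 lower, with a median change of -0.06. That median covers large changes in both directions, from -1.02 for Cdk6 (limma, adjusted p = 0.000574) to 0.75 for Cdk2 (adjusted p = 0.0011). The shares called higher were 20.0% and 38.5%, against 92.0% of the G2-M and mitosis genes and 24.6% of all genes tested. The shares called lower were 0% and 15.4%, against 0% of the G2-M and mitosis genes and 17.5% of all genes tested. Cdc25a stands both in the G1 list and among the other mitosis genes. The difference between these lists was not tested, and the lists were chosen with earlier results of these data known.

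**Figure D4:**
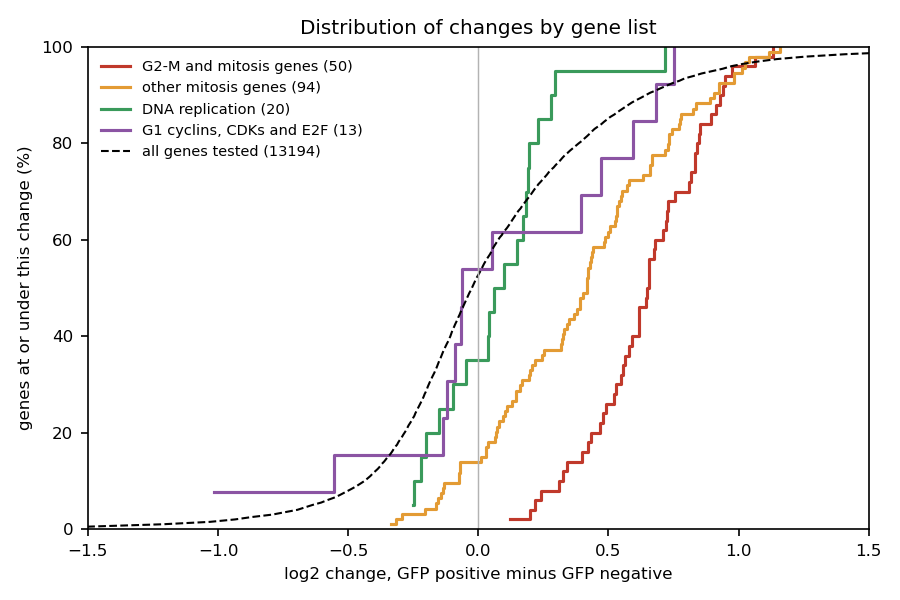
Cumulative share of genes, in percent, at or under a given log2 change (GFP positive minus GFP negative). The curve of the 50 G2-M and mitosis genes lies furthest right, with a median of 0.65, followed by the 94 other mitosis genes at 0.42, while the 20 DNA replication genes (0.08), the 13 G1 genes (-0.06) and all 13194 genes (-0.02, dashed) have medians near 0.

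Over 15 alternative settings, 42 to 49 of the 50 genes were higher and 0 were lower. Of the 50, 37 were past the threshold in all 15 settings, and 42 in each of the 6 fits with 1 sample left out. The change was above 0 in all 15 for 49 genes, the exception being Nek2, at -0.00146 without GFP positive 3 and GFP negative 1. Centring each array on its median moved the median of all genes to -0.14 and left 42 genes higher, with the calls of Birc5 (change 0.21), Bub1 (0.20), Mad2l1 (0.13) and Ect2 lost. Over all genes, 58.4% of the calls were higher without centring, 39.6% with centring and 49.0% after quantile normalization.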

How the data were processed

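Total RNA of 6 sorted samples was labelled and hybridised to Affymetrix mouse genome arrays, per the labels' protocols. The authors deposited 1 log2 value per array for each of 45101 probe sets, and the log2 unit was read from their range, -0.105 to 13.3. Affymetrix Expression Console is named, without a version, per the submitters' processing notes. For the summarisation algorithm and the normalization the sources used here give no statement, and the number of arrays limits the precision.

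No further normalization was applied. Each gene was represented by the probe set of highest mean among those annotated to 1 gene symbol. Genes with a mean log2 signal below 1.27 were left out, which left 13194 of 18193. That level was the 40th percentile over all probe sets other than controls. The 3 GFP positive arrays were set against the 3 GFP negative arrays in limma 3.58.1 (R 4.3.3; lmFit and eBayes, group only, two-sided) with Benjamini-Hochberg adjustment over all genes tested and a threshold of 0.05. The fit was tested on simulated data. Replicate numbers come from the labels, and deviations from the group means correlated between samples of equal number (across genes, 0.47, 0.35 and 0.25), so the numbers were taken to pair the samples. Alternatives changed the normalization, the filter, the scale of low signals, the variance prior, the probe set rule, the replicate block and the samples used. Values in every sample are given for called genes with a log2 change of at least 0.5 and for the 2 genes with the smallest p in each role group. The genes and the lists were chosen with earlier results of these data known. Promoter sequences are those of RefSeq on GRCm38.p6.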

Additional observations from a re-analysis of the deposited data

How the results depend on the processing

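The count of the 50 genes that were higher, 46 as reported, was 46 with the replicate block in the paired fit, where the same 46 genes passed. Calls of markers, of the replication and G1 lists and of other probe sets were not refitted with the block. With 1 sample left out, 42 to 45 of the 46 stayed past the threshold. Medians of the 50 genes were 0.54 with arrays centred on their medians, 0.52 with 32 added in linear units, 0.55 with the mean of all probe sets of a gene, and 0.55 with both GFP positive 3 and GFP negative 1 left out. In that last setting 3325 genes were called in all, against 5557, and Cdca8 had a change of 0.35 (adjusted p = 0.0712). With the mean of all probe sets the changes of Kif23 and Smc2 were 0.18 (adjusted p = 0.195) and 0.55 (adjusted p = 0.104). Medians of the other mitosis genes were 0.30 after quantile normalization, 0.30 with centring, 0.27 with 32 added, 0.31 with the mean of all probe sets and 0.33 with GFP positive 3 and GFP negative 1 left out. The count of other mitosis genes that were lower, 2 as reported, was 4 after quantile normalization, 7 with centring, 1 with the filter at the 60th percentile, 1 with 32 added, 1 with the mean of all probe sets and 0 without GFP positive 3 and GFP negative 1. It was 0 to 2 with 1 sample left out. The cause of these shifts was not tested. Signal over background could not be judged, since detection calls were not used here.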
